A study of Mus musculus with 36 samples.

Results

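Car4, Tmigd1, Anpep, Ceacam12, Emp1 and Mlph are 6 of the 988 mouse genes read by a targeted RNA panel for immune and cancer genes, and they were put together under the working name of surface colonocyte genes. The name fits only some of them in these data, since Anpep and Emp1 were well detected in MC-38 tumours with next to no Epcam, a gene of epithelial cells. The 6 genes were picked by name, with earlier results of these data known. Those results were the values of Tmigd1 and Emp1 in the comparison of sash with wild-type lesions and the level of Car4 in wild-type tumours, so these are given below as descriptions. All 6 genes were present in both count tables, and 34 libraries in 9 groups were read for them. The panel amplifies 1 short stretch of each transcript, so a level can be compared between samples for a gene, and not between genes.

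The samples came from C57BL/6 mice of wild-type Kit and from mice carrying the Kit W-sash allele (labelled cKitw-sh on C57BL/6 and called sash here), a regulatory mutation that leaves mice without most mast cells. It acts on Kit in every cell type that uses Kit, so sash mice are not a model of mast cell loss alone. Every mouse that gave colon tissue had received azoxymethane (AOM), which induces tumours of the colon epithelium in rodents. Tumours of 32-week sash mice (n = 5) and wild-type mice (n = 5) were taken 18 weeks after the last of 6 injections of 10 mg/kg AOM. Colon with preneoplastic lesions came from 14-week sash mice (n = 3) and wild-type mice (n = 3) that had received 3 injections over 3 weeks and were killed 3 weeks later. A separate set of 14-week wild-type mice received cromolyn, a drug that stabilises mast cells, together with AOM (n = 3), cromolyn for 3 weeks after AOM (n = 3), or AOM only (n = 3). Tumours of the C57BL/6 colon carcinoma cell line MC-38 from saline-treated sash hosts (n = 5 analysed) and wild-type hosts (n = 4 analysed) completed the series, and the labels used here do not give the site of the graft.

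Epithelial cells of the colon are born in the crypts, move upwards and mature into absorptive colonocytes that line the luminal surface before they are shed. Colon tumours keep cells in a crypt-like, proliferating state and generally hold few mature surface cells. Car4 encodes a membrane-anchored carbonic anhydrase that converts carbon dioxide and bicarbonate at the luminal membrane of surface colonocytes. Tmigd1 encodes an adhesion protein with immunoglobulin domains in the brush border of intestinal epithelium. Anpep encodes aminopeptidase N (CD13), a peptidase of the brush border that myeloid and stromal cells also carry. Ceacam12 belongs to the carcinoembryonic antigen family of cell surface proteins. Emp1 encodes epithelial membrane protein 1, a small membrane protein that epithelial and many other cells express, and Mlph encodes melanophilin, which tethers vesicles to a myosin motor in melanocytes and is also present in epithelia.

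The 250 bases before the start sites of Car4, Tmigd1 and Ceacam12 are shown because the levels of these genes parted company among the samples of 14-week mice (below). The sequences are RefSeq's, on build GRCm38.p6, each on the + strand of its chromosome, and the table held all 6 genes. Capitals mark a match to the AP-1 motif TGANTCA.

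Car4, chr11:84957504-84957753: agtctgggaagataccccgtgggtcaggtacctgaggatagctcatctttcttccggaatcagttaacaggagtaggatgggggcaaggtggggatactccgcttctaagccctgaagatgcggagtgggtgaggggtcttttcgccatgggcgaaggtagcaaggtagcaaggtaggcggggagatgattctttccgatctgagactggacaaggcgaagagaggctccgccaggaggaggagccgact

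Tmigd1, chr11:76890870-76891119: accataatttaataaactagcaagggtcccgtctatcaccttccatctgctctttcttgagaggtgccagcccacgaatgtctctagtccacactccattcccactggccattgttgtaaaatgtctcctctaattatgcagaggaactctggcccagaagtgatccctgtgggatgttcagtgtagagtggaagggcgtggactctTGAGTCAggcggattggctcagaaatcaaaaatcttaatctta

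Ceacam12, chr7:18065679-18065928: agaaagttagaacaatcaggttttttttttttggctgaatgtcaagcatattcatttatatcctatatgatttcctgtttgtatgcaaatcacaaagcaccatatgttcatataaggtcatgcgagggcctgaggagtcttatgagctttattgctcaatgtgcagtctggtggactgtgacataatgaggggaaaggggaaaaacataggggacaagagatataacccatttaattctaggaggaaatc

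On both strands of the 250 bases, 3 motifs were searched in all 6 genes: TTTATG for CDX factors, CAAAGT for a partial site of HNF4 and TGANTCA for AP-1. They occur in 11.1%, 12.5% and 6.87% of 27025 mouse promoter windows of the same length. The Tmigd1 window held 1 AP-1 match and the Emp1 window held 2, and the other 4 windows matched none of the 3 motifs. No match overlapped another, and a match in these windows says nothing about binding.

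Total counts ran from 449880 to 1264354 per library. Replicates differed by more than sampling noise in each of 51 pairs (chi-square over degrees of freedom between 5.85 and 194), so none was taken for a repeat of another. Whether the replicates are separate mice is not stated by the labels, so a p-value reflects the spread among these libraries, and part of that spread may be technical. Wild-type tumour 4 stood apart from the other wild-type tumours in Car4 and Mlph, and results that rest on it are given with and without it. Levels below are CPM, in which each count is taken over its library's total and TMM factor, within each of the 2 tables. Epcam, a gene of all colon epithelial cells, served as a measure of epithelial content. It averaged 27744 ± 2364 CPM in sash tumours (SD, n = 5), 28056 ± 4592 CPM in wild-type tumours (n = 5), 26213 ± 3659 CPM in sash lesions (n = 3) and 23673 ± 2073 CPM in wild-type lesions (n = 3). It averaged 13939 ± 3790 CPM with cromolyn given during AOM, 13920 ± 1579 CPM with cromolyn after AOM and 16898 ± 762.2 CPM with AOM only (n = 3 each). In MC-38 tumours it had 8 counts over the 5 sash hosts and 5 counts over the 4 wild-type hosts.

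**Figure D1:**
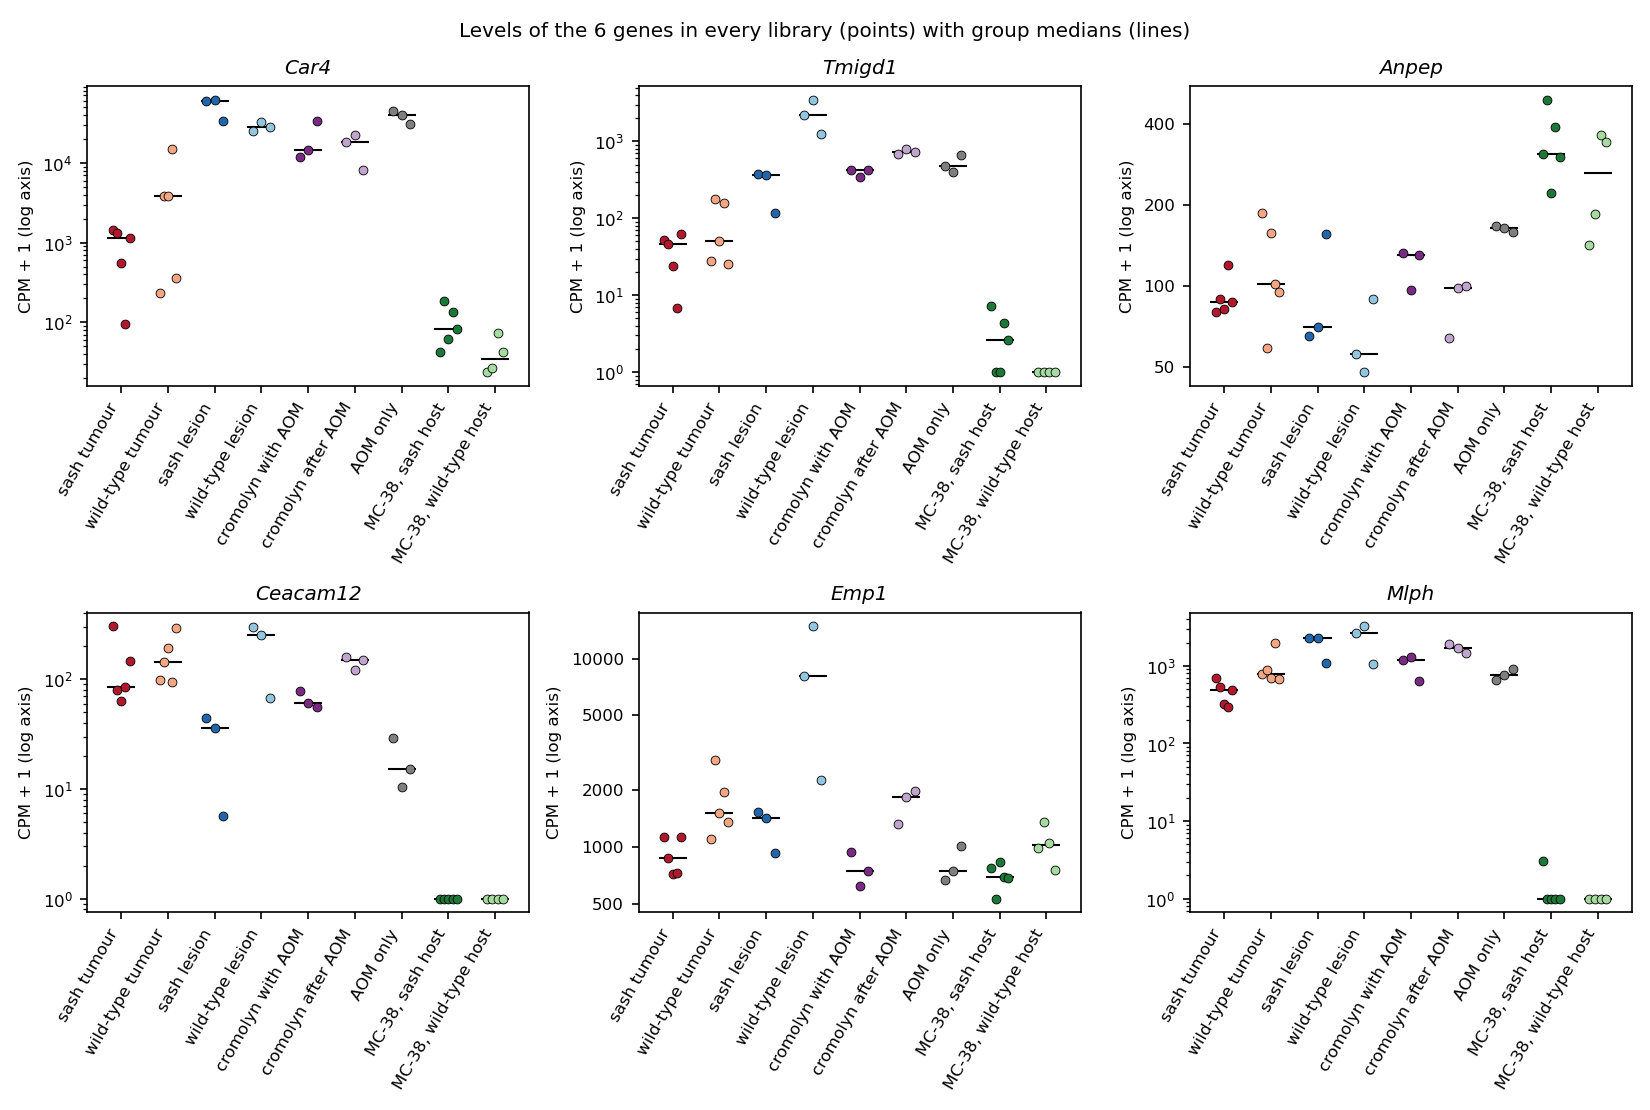
Level of each of the 6 genes (CPM + 1, log axis) in every library, with 1 point per library and a line at the median of each of the 9 groups. Car4 is high in all groups of 14-week mice, Tmigd1 and Emp1 are highest in wild-type lesions, and Ceacam12 and Mlph are at or near 0 in MC-38 tumours while Anpep and Emp1 are not.

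Tumours held far less Car4 than the colon with early lesions, in both genotypes. In sash tumours 1 to 5, Car4 measured 1431, 1322, 548, 95.5 and 1153 CPM. In sash lesions 1 to 3 it measured 59770.2, 62115 and 33670.3 CPM. The 5 wild-type tumours had Car4 levels of 230.0, 3868, 3802, 14904 and 360.4 CPM, and the 3 wild-type lesions had 25353, 32516 and 28090.0 CPM. Every tumour lay below every lesion sample of its genotype. How many of all genes tested separate in this way was not counted. Here and below, nothing is therefore read from groups of a gene that do not overlap. The log2 difference of Car4 was −5.83 between sash tumours and sash lesions (SE 1.06, edgeR quasi-likelihood adjusted p = 0.000509) and −2.69 between wild-type tumours and wild-type lesions (SE 0.95, given without a test, since the level of Car4 in wild-type tumours was in view). Of the genes tested, 47.5% passed in the sash comparison and 37% in the wild-type comparison, so a change between the stages was common on this panel. The members were chosen with results of these data known, so here and below an adjusted p sets a gene against all genes tested and is not independent support for the list.

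Tmigd1 and Mlph fell with Car4. Tmigd1 measured 51.1, 45.5, 23.1, 5.81 and 61.3 CPM in sash tumours 1 to 5, against 372, 361 and 118 CPM in sash lesions 1 to 3 (log2 difference −2.91, SE 0.69, edgeR adjusted p = 0.00328). The 5 wild-type tumours had 27.1, 179, 49.3, 158 and 24.8 CPM, against 2172, 3489 and 1248 CPM of Tmigd1 in the 3 wild-type lesions (−4.77, SE 0.71). The lesion values of Tmigd1 were in view in both genotypes. Its wild-type difference is therefore given without a test, and its sash test is not independent of that choice. Neither genotype showed any overlap between tumours and lesions for Tmigd1. Mlph measured 704, 532, 322, 296 and 485 CPM in sash tumours 1 to 5, against 2297, 2313 and 1075 CPM in sash lesions (−2.02, SE 0.41, edgeR adjusted p = 0.00105). In wild-type tumours 1 to 5 it measured 791, 875, 697, 1958 and 668 CPM, against 2633, 3253 and 1068 CPM in wild-type lesions (−1.27, SE 0.40, edgeR adjusted p = 0.0236). The sash groups did not overlap for Mlph, and among wild-type samples only tumour 4 lay above the lowest lesion.

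Emp1 and Ceacam12 had unlike log2 differences in the 2 genotypes (the difference itself is given further on, without a test), and Anpep was not called in either. Emp1 measured 1096, 2909, 1516, 1960.2 and 1354 CPM in wild-type tumours 1 to 5, against 8058, 14886 and 2277 CPM in wild-type lesions (−2.29, SE 0.43, given without a test, since its lesion values were in view). In sash tumours 1 to 5 it measured 1129.7, 871, 721, 725 and 1136 CPM, against 1539, 1417 and 927 CPM in sash lesions (−0.50, SE 0.43, edgeR adjusted p = 0.350). The sash lesion values of Emp1 were in view too, so this test is not independent of that choice. Ceacam12 was higher in sash tumours, at 304, 78.7, 62.3, 84.7 and 146 CPM, than in sash lesions, at 43.0, 34.7 and 4.72 CPM (2.33, SE 0.74, edgeR adjusted p = 0.0185). All 5 sash tumours lay above every sash lesion for Ceacam12, and without sash lesion 3 the difference was 1.79 and its call ended (edgeR adjusted p = 0.0675). Wild-type tumours held 96.9, 144, 193, 93.0 and 294 CPM of Ceacam12, and wild-type lesions held 301, 253 and 66.9 CPM, so the groups overlapped (−0.36, SE 0.64, edgeR adjusted p = 0.694). Anpep overlapped between the stages in both genotypes, with log2 differences of −0.12 for sash (SE 0.39, edgeR adjusted p = 0.823) and 0.87 for wild type (SE 0.41, edgeR adjusted p = 0.104).

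Over the list, 3 of 6 genes fell and 1 rose between sash tumours and sash lesions, where 23.6% of all genes tested fell and 23.9% rose. Between wild-type tumours and wild-type lesions 4 of 6 fell and 0 rose, where 17.6% of all genes tested fell and 19.5% rose. Nothing is read from either count. The wild-type count includes Car4, whose tumour level was in view, and Tmigd1 and Emp1, whose wild-type lesion values were. The sash count includes Tmigd1, whose sash lesion values were in view, as were those of Emp1, which was not called. These genes enter the medians that follow as well, so those are descriptions. The median log2 difference of the 6 genes was −1.26 in sash and −1.78 in wild type, and the median of all 848 genes tested was 0.02 in sash and −0.00115 in wild type. Without wild-type tumour 4 the wild-type difference was −3.80 for Car4 (SE 0.92) and −1.62 for Mlph (SE 0.37, edgeR adjusted p = 0.0031). With 1 library left out at a time, the call of Mlph in wild type ended without any of wild-type tumours 1, 3 and 5 or wild-type lesions 1 and 2. The 2 stages also differ in the age of the mice and in the number of AOM injections, which cannot be told apart from the stage.

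Other genes of mature colonocytes moved the same way as Car4. Of 40 such genes listed, 7 were on the panel. Between sash tumours and sash lesions 6 of the 7 fell and 1 rose, and between wild-type tumours and wild-type lesions 4 fell and 1 rose. Hpgd, which degrades prostaglandins, fell by 3.07 on the log2 scale in sash tumours (SE 0.54, edgeR adjusted p = 0.000442) and by 1.59 in wild-type tumours (SE 0.53, edgeR adjusted p = 0.0286). Ceacam20, of the carcinoembryonic antigen family, fell too (−2.37, SE 0.36, edgeR adjusted p = 0.00013 in sash, and −1.23, SE 0.36, edgeR adjusted p = 0.0162 in wild type). Abcg2, an efflux pump, and Ceacam1 fell in both genotypes as well. The gene that rose was Muc1, a membrane mucin that tumours often express (1.53, SE 0.41, edgeR adjusted p = 0.00649 in sash, and 2.45, SE 0.43, edgeR adjusted p = 0.000647 in wild type). Summed over the 7 genes the level ran from 15974 to 23371 CPM in sash tumours, 19053 to 42028 CPM in wild-type tumours, 46669 to 62696 CPM in sash lesions and 45074 to 83251 CPM in wild-type lesions. Ceacam1 made up most of these sums, with means of 17037, 21782, 46614 and 57508 CPM in these 4 groups.

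Epcam did not pass between the stages (log2 difference 0.07, SE 0.16, edgeR adjusted p = 0.730 in sash; 0.20, SE 0.16, edgeR adjusted p = 0.330 in wild type). Cd44, a crypt and Wnt target gene and the only one of 24 such genes on the panel, was higher in tumours of sash mice (2.39, SE 0.40, edgeR adjusted p = 0.000276) and of wild-type mice (1.53, SE 0.38, edgeR adjusted p = 0.00722). In MC-38 tumours, with next to no Epcam, Cd44 averaged 3068 CPM in sash hosts and 4286 CPM in wild-type hosts. Its rise is therefore not read as one of crypt cells. Markers of other cells moved too, and their part in the results was not tested. Of 6 genes tested from a list of neutrophil genes, the 5 other than Ceacam10 were higher in tumours of both genotypes. Ceacam10 did not pass in sash and was lower in wild-type tumours. It carries nearly all of the list's level in lesions (mean 4241 CPM in sash lesions and 5821 CPM in wild-type lesions). In MC-38 tumours Ceacam10 had 0 counts, while Fpr2 of the same list averaged 844 CPM in sash hosts and 959 CPM in wild-type hosts. Ceacam10 is therefore not read as a neutrophil gene here. Summed over the other 6 on the panel (Cxcr2, Fpr1, Fpr2, Csf3r, Mpo and Hdc), the level ran from 632 to 1218 CPM in sash tumours and 25.1 to 37.5 CPM in sash lesions, and from 118 to 447 CPM in wild-type tumours and 23.5 to 31.8 CPM in wild-type lesions. Of 11 genes of B cells and follicles tested, 1 was higher in sash tumours and 7 were lower in wild-type tumours. Their sum over 12 genes ran from 189 to 309 CPM in sash tumours, 242 to 478 CPM in sash lesions, 199.7 to 1456 CPM in wild-type tumours and 1462 to 4126 CPM in wild-type lesions. Of 6 fibroblast and matrix genes, 4 were higher and 1 lower in sash tumours, and 3 were higher and 1 lower in wild-type tumours. Of 12 T cell genes, 1 was higher and 2 lower in sash tumours, and 1 was higher and 6 lower in wild-type tumours, with sums of 479 to 622 CPM in sash tumours, 502 to 949 CPM in sash lesions, 294 to 789 CPM in wild-type tumours and 838 to 1889 CPM in wild-type lesions. Of 10 macrophage and monocyte genes, 5 were higher and 1 lower in sash tumours, and 3 were higher and 1 lower in wild-type tumours. Of 3 endothelial genes, 2 were higher in sash tumours and 1 in wild-type tumours. Of 5 proliferation genes, 1 was higher in sash tumours (Hells) and 0 passed in wild-type tumours, with medians of 0.10 and −0.12. In bulk samples, fewer cells of a type and less RNA per cell cannot be told apart.

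**Figure D2:**
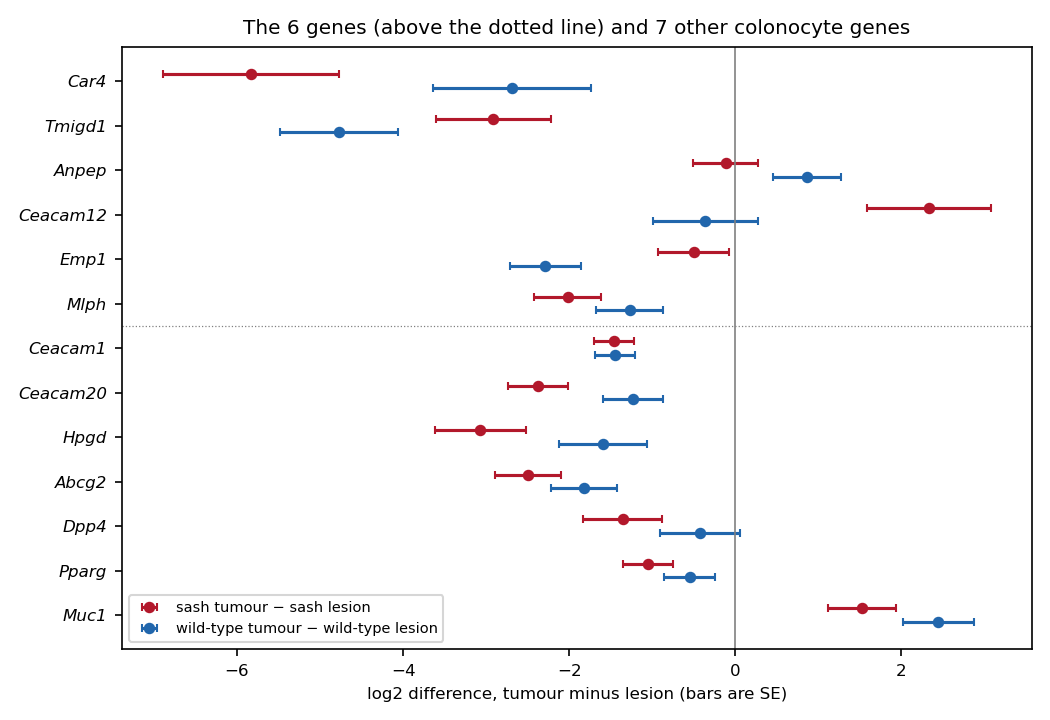
Log2 difference, tumour minus lesion (x axis, edgeR estimate with SE bars), for the 6 genes above the dotted line and 7 other colonocyte genes below it, in sash and wild-type mice. Car4, Tmigd1 and Mlph lie left of 0 in both genotypes, the Ceacam12 estimate lies right of 0 in sash mice and left of 0 in wild-type mice, and Muc1 lies right of 0 in both.

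Among the tumours, all 6 genes had lower fitted levels in sash than in wild type (Ceacam12 turned to 0.0074 on the log2 scale without wild-type tumour 5), and none of them passed. The share of all genes tested that passed was 0%, with 0 of 797 called by edgeR, 159 at an unadjusted p below 0.05 and 81 called by DESeq2. Emp1 lay at 721 to 1136 CPM in sash tumours and at 1096 to 2909 CPM in wild-type tumours (log2 difference −0.98, SE 0.27, edgeR adjusted p = 0.0798). Mlph lay at 296 to 704 CPM in sash tumours and at 668 to 1958 CPM in wild-type tumours (−1.11, SE 0.34, edgeR adjusted p = 0.0981). For Emp1 3 of 5 sash tumours, and for Mlph 4 of 5, lay below every wild-type tumour. DESeq2 called 2 of the 6 genes, and Emp1 and Mlph ranged from −0.99 to −0.91 and from −1.14 to −0.94 over the settings that kept every library. Without wild-type tumour 4 the log2 difference of Mlph was −0.73 (SE 0.25, edgeR adjusted p = 0.172).

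Car4 and Tmigd1 varied so much among wild-type tumours that the genotypes overlapped. The log2 difference of Car4 was −2.36 (SE 1.03), and −1.22 without wild-type tumour 4. That of Tmigd1 was −1.26 (SE 0.70, edgeR adjusted p = 0.345), and −0.94 without wild-type tumour 4. Among sash tumours Car4 reached at most 1431 CPM, while 3 of 5 wild-type tumours lay at 3802 CPM or above and the other 2 lay at 230.0 and 360.4 CPM. Anpep lay at 79.3 to 119 CPM in sash tumours and 57.8 to 186 CPM in wild-type tumours (−0.41, SE 0.30, edgeR adjusted p = 0.489). Ceacam12 had a log2 difference of −0.31 (SE 0.48, edgeR adjusted p = 0.761). The median over the 6 genes was −1.04, beside −0.04 over all genes tested. That median includes Car4, whose wild-type tumour level was in view, so it is a description. The 7 other colonocyte genes also had 0 calls and a median of −0.72, and wild-type tumour 4 held the highest sum of these 7, at 42028 CPM.

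Markers of other cells differed beside these genes between the tumours of the 2 genotypes, also with 0 calls, and their part in the result was not tested. Of 6 genes tested from the neutrophil list, all had estimates above 0 (median 1.50), and the 5 other than Ceacam10 had an unadjusted p below 0.05. Without Ceacam10 their summed level was 632 to 1218 CPM in sash tumours and 118 to 447 CPM in wild-type tumours, which did not overlap. With it the sums over the 7 genes on the panel overlapped, at 1926 to 6631 CPM in sash tumours and 800 to 3385 CPM in wild-type tumours. Of 3 endothelial genes, 2 had an unadjusted p below 0.05 (median 1.26), with sums of 171 to 363 CPM in sash tumours and 117 to 279 CPM in wild-type tumours. All 5 proliferation genes had estimates above 0 (2 at an unadjusted p below 0.05, median 0.26), with sums of 4231 to 6782 CPM in sash tumours and 2656 to 5559 CPM in wild-type tumours. Of 4 genes of B cells and follicles tested, 1 had an unadjusted p below 0.05 (median −1.15), with sums over 12 genes of 189 to 309 CPM in sash tumours and 199.7 to 1456 CPM in wild-type tumours.

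In the preneoplastic lesions the 6 genes split. This comparison was in view when they were chosen, so its values are a description without a test. Tmigd1 measured 372, 361 and 118 CPM in sash lesions, against 2172, 3489 and 1248 CPM in wild-type lesions (log2 difference −3.07, SE 0.50). Emp1 measured 1539, 1417 and 927 CPM in sash lesions, against 8058, 14886 and 2277 CPM in wild-type lesions (−2.74, SE 0.58). Ceacam12 measured 43.0, 34.7 and 4.72 CPM in sash lesions, against 301, 253 and 66.9 CPM in wild-type lesions (−2.99, SE 0.77). For these 3 genes every sash lesion lay below every wild-type lesion, and within each genotype replicate 3 was the lowest. The share of all genes that separated by genotype was not counted.

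Car4 ran the other way. All 3 sash lesions, at 59770.2, 62115 and 33670.3 CPM, lay above the 3 wild-type lesions, at 25353, 32516 and 28090.0 CPM (log2 difference 0.82, SE 0.25). Mlph measured 2297, 2313 and 1075 CPM in sash lesions and 2633, 3253 and 1068 CPM in wild-type lesions, and the groups overlapped (−0.34, SE 0.42). Anpep measured 64.4, 69.5 and 156 CPM in sash lesions and 54.8, 47.0 and 88.5 CPM in wild-type lesions (0.60, SE 0.46), and the difference was 0.01 without sash lesion 3. A ratio within a library does not depend on scaling. Per 1000 Car4 counts, Tmigd1 had 6.23, 5.81 and 3.50 counts in sash lesions 1 to 3, against 85.7, 107 and 44.4 counts in wild-type lesions 1 to 3.

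The call rule passed 2 of the 6 genes, Tmigd1 and Emp1, where it passed 2.84% of all genes tested (2.32% lower and 0.516% higher). With the replicate number as a block, 4 passed (also Ceacam12 lower and Car4 higher), and 84 genes in all. The median over the 6 genes was −1.54, and that of all 775 genes tested was 0.05. Since Tmigd1 and Emp1 were in view here, nothing is read from these counts or from the median of the 6 genes. The 7 other colonocyte genes had 0 calls (1 at an unadjusted p below 0.05) and a median of 0.01, and Epcam differed by 0.12 (SE 0.19). Genes of B cells and follicles moved with Tmigd1, Emp1 and Ceacam12. Of 12 on the panel and 10 tested, 4 were lower in sash lesions, with a median of −2.97. Their summed level was 478, 335 and 242 CPM in sash lesions, against 4126, 1462 and 1498 CPM in wild-type lesions, and 0 to 1 of the 12 genes were at 0 in a sash lesion. Their part in the lower Tmigd1, Emp1 and Ceacam12 was not tested.

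The genotype difference in tumours minus that in lesions was −3.14 for Car4 (SE 1.40), 2.69 for Ceacam12 (SE 0.96), 1.86 for Tmigd1 (SE 0.98) and 1.79 for Emp1 (SE 0.62). It was −0.98 for Anpep (SE 0.56) and −0.75 for Mlph (SE 0.58). Without wild-type tumour 4 it was −2.03 for Car4 (SE 1.20), −0.39 for Mlph (SE 0.51), 2.52 for Ceacam12 (SE 0.97), 2.15 for Tmigd1 (SE 0.99), 1.80 for Emp1 (SE 0.65) and −1.04 for Anpep (SE 0.57). This difference rests partly on the lesion comparison that was in view, so it is given without a test. Of all 848 genes, edgeR called 0 (0%) for this difference, with 128 at an unadjusted p below 0.05, and DESeq2 called 19.

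The wild-type lesions and the AOM-only colons carry the same labelled genotype, age and AOM treatment and come from separate sets of mice. The labels do not name the run, extraction or dissection of either set. Library names end in an S number whose meaning is not stated, and some lesion libraries share the same one. Their comparison also uses the wild-type lesion libraries in which Tmigd1 and Emp1 were noticed, so the values of these 2 genes are given without a test. Ceacam12 measured 301, 253 and 66.9 CPM in wild-type lesions, against 28.0, 9.40 and 14.2 CPM with AOM only (log2 difference 3.55, SE 0.64, edgeR adjusted p = 0.00876). Emp1 measured 8058, 14886 and 2277 CPM in wild-type lesions, against 671, 741 and 1014 CPM with AOM only (3.34, SE 0.57). Tmigd1 measured 2172, 3489 and 1248 CPM in wild-type lesions, against 481, 402 and 661 CPM with AOM only (2.12, SE 0.36). Every wild-type lesion lay above every AOM-only colon for these 3 genes, and the share of all genes that did so was not counted.

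Mlph rose in wild-type lesions as well, at 2633, 3253 and 1068 CPM, against 647, 767 and 917 CPM with AOM only (1.53, SE 0.36, edgeR adjusted p = 0.0266). Anpep fell to 54.8, 47.0 and 88.5 CPM in wild-type lesions, against 166, 164 and 158 CPM with AOM only (−1.39, SE 0.30, edgeR adjusted p = 0.0197). Car4 overlapped, at 25353 to 32516 CPM in wild-type lesions and 30849 to 44416 CPM with AOM only (−0.47, SE 0.20, edgeR adjusted p = 0.132). Thus 4 of 6 genes rose and 1 fell, where 15.6% of all genes tested passed (8.66% rose and 6.96% fell), and nothing is read from this count for the same reason. Without AOM-only colon 1 none of the 6 passed, although the log2 differences of the 5 genes that rose or fell ran from −1.36 to 4.07. Without AOM-only colon 2, 2 of the 6 passed, and without AOM-only colon 3, 3 did. The other 7 colonocyte genes had 0 calls (2 at an unadjusted p below 0.05). Of 10 genes of B cells and follicles tested, 5 were higher in wild-type lesions, with summed levels of 1462 to 4126 CPM in wild-type lesions and 658 to 1271 CPM with AOM only. Of 5 fibroblast and matrix genes tested, 2 were lower, with sums of 2633 to 7573 CPM in wild-type lesions and 13208 to 14846 CPM with AOM only. Of 12 T cell genes tested, Trat1 was higher and Cd28 lower, with sums of 838 to 1889 CPM in wild-type lesions and 647 to 923 CPM with AOM only. The part of these cells in the result was not tested, and the set of mice cannot be told apart from other differences between the groups.

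None of the 6 genes passed between cromolyn during AOM and AOM only, and Ceacam12 came closest. Ceacam12 measured 77.0, 59.3 and 54.5 CPM with cromolyn during AOM, against 28.0, 9.40 and 14.2 CPM with AOM only (log2 difference 1.89, SE 0.38, edgeR adjusted p = 0.0563). The groups did not overlap, and over 7 other settings the adjusted p of Ceacam12 ran from 0.0019 to 0.791, with 3 calls. Car4 measured 11983, 14449.6 and 33303 CPM with cromolyn during AOM, against 44416, 39998 and 30849 CPM with AOM only (−0.97, SE 0.45, edgeR adjusted p = 0.314). Tmigd1 (−0.40, SE 0.18), Anpep (−0.46, SE 0.24), Mlph (0.42, SE 0.24) and Emp1 (−0.08, SE 0.20) had edgeR adjusted p between 0.274 and 0.854. Thus 0 of 6 passed (2 at an unadjusted p below 0.05, 1 by DESeq2), where 0.26% of all genes tested passed.

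Ceacam12, Emp1 and Mlph were higher, and Anpep lower, in colons with cromolyn after AOM than with AOM only. Ceacam12 measured 159, 120.0 and 150.4 CPM with cromolyn after AOM, against 28.0, 9.40 and 14.2 CPM with AOM only (log2 difference 3.05, SE 0.37, edgeR adjusted p = 0.00142). Emp1 measured 1322, 1848 and 1992 CPM with cromolyn after AOM, against 671, 741 and 1014 CPM with AOM only (1.07, SE 0.20, edgeR adjusted p = 0.0257). Mlph measured 1934, 1707 and 1464 CPM with cromolyn after AOM, against 647, 767 and 917 CPM with AOM only (1.11, SE 0.24, edgeR adjusted p = 0.0339). Anpep measured 63.1, 97.1 and 99.0 CPM with cromolyn after AOM, against 166, 164 and 158 CPM with AOM only (−0.93, SE 0.24, edgeR adjusted p = 0.0466). In all 4 genes the groups did not overlap, and the share of all genes that separated in this way was not counted.

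Tmigd1 and Car4 did not pass, and their groups did not overlap either. Tmigd1 measured 686, 792 and 725 CPM with cromolyn after AOM, against 481, 402 and 661 CPM with AOM only (0.49, SE 0.17, edgeR adjusted p = 0.135). Car4 measured 18431, 22609.9 and 8155 CPM with cromolyn after AOM, against 44416, 39998 and 30849 CPM with AOM only (−1.25, SE 0.45, edgeR adjusted p = 0.153). Thus 3 of 6 genes rose and 1 fell, where 4.82% of all genes tested passed (2.34% rose and 2.47% fell). Ceacam12 passed with each of the 9 libraries of the experiment left out. The calls of Mlph and Anpep ended without any 1 of AOM-only colons 1 to 3 or of the 3 colons with cromolyn after AOM. That of Anpep ended also without colon 3 with cromolyn during AOM, and that of Emp1 ended without AOM-only colons 1 or 2 or without colons 2 or 3 with cromolyn after AOM. In a fit of all 25 AOM libraries none of the 6 passed, and none of all genes did.

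Other cells moved beside these genes in the colons with cromolyn after AOM, and their part in the result was not tested. Of 5 proliferation genes tested, 3 were higher (Birc5, Mki67 and Cenpf), with sums of 6514 to 8726 CPM with cromolyn after AOM and 4177 to 5252 CPM with AOM only. Of 11 genes of B cells and follicles tested, 2 were higher (Ccl19 and Madcam1), with sums of 898 to 3681 CPM with cromolyn after AOM and 658 to 1271 CPM with AOM only. Of 12 T cell genes tested, 1 was higher (Trat1, 3.70, SE 0.76, edgeR adjusted p = 0.0356) and all 12 estimates were above 0, with sums of 1328 to 1592 CPM with cromolyn after AOM and 647 to 923 CPM with AOM only, which did not overlap. None of 5 fibroblast and matrix genes tested passed (3 at an unadjusted p below 0.05), and their sums did not overlap, at 10286 to 10939 CPM with cromolyn after AOM and 13208 to 14846 CPM with AOM only. Of the 7 other colonocyte genes, Abcg2 was lower (−0.78, SE 0.16, edgeR adjusted p = 0.0333) and the other 6 did not pass. Abcg2 was also lower with cromolyn during AOM (−0.95, SE 0.16, edgeR adjusted p = 0.0245). Several lists also shifted with cromolyn during AOM, with 0 calls in the lists that follow. Estimates were above 0 for all 11 B cell and follicle genes (median 1.61) and all 12 T cell genes tested. Sums were 5822 to 8386 CPM for proliferation and 1092 to 1796 CPM for T cell genes, without overlap with AOM only. Sums of B cell and follicle genes (1174 to 4539 CPM) and of fibroblast and matrix genes (8959 to 13732.5 CPM) overlapped AOM only. Both cromolyn groups share the AOM-only colons.

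The 2 schedules of cromolyn were therefore set against each other directly, a comparison added after the data had been seen. Every colon with cromolyn after AOM lay above every colon with cromolyn during AOM for Tmigd1, Ceacam12, Emp1 and Mlph. The share of all genes that separated in this way was not counted. Emp1 measured 1322, 1848 and 1992 CPM with cromolyn after AOM, against 937, 622 and 748 CPM with cromolyn during AOM (log2 difference 1.15, SE 0.20, edgeR adjusted p = 0.0629). Tmigd1 measured 686, 792 and 725 CPM with cromolyn after AOM, against 420.3, 339 and 419 CPM with cromolyn during AOM (0.90, SE 0.18, edgeR adjusted p = 0.0697). Ceacam12 (1.15, SE 0.31), Mlph (0.69, SE 0.24), Anpep (−0.47, SE 0.25) and Car4 (−0.28, SE 0.45) had edgeR adjusted p between 0.277 and 0.919. Here 0 of 6 passed, 4 had an unadjusted p below 0.05, and 0% of all genes tested passed. DESeq2 called 2 of the 6 genes.

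**Figure D3:**
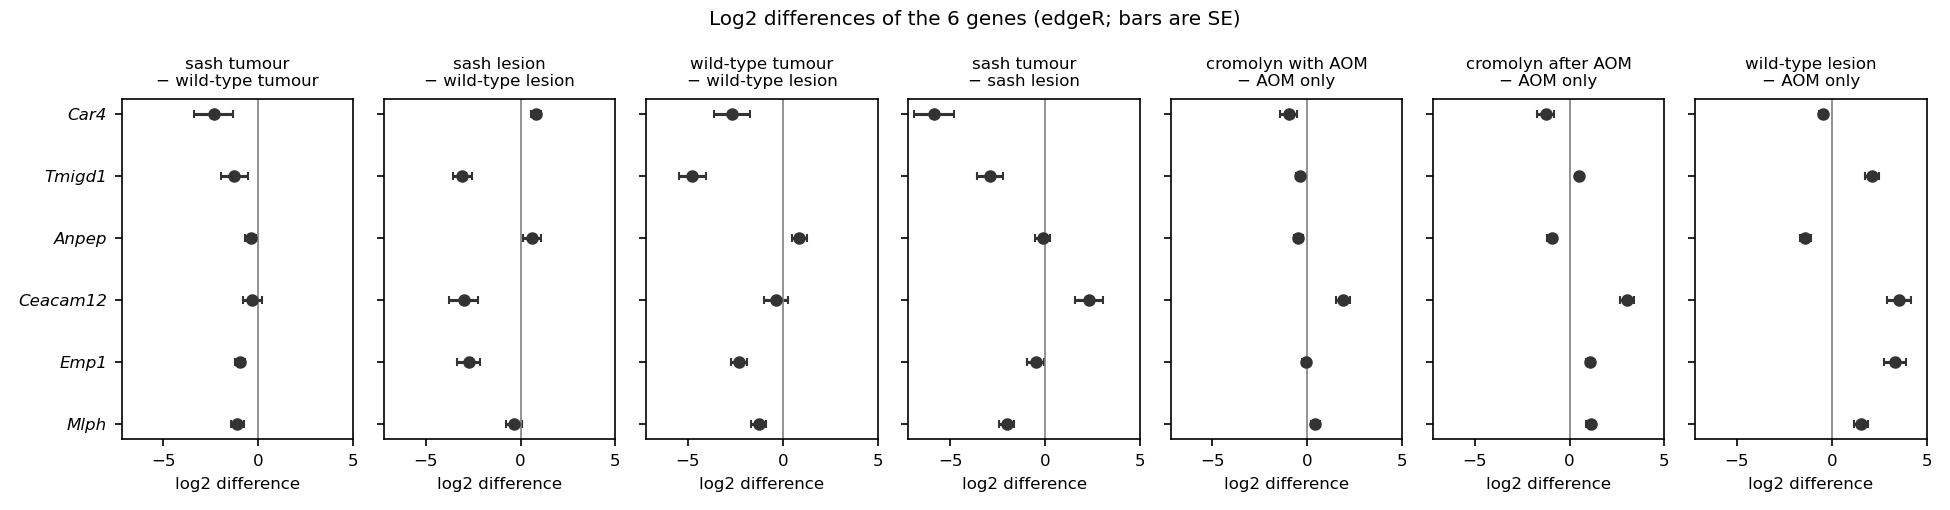
Log2 differences of the 6 genes (x axis, edgeR estimates with SE bars) in 7 comparisons, 1 panel each, with the group named above minus the group named below. All 6 estimates lie left of 0 for sash against wild-type tumours (Ceacam12 at 0.0074 without wild-type tumour 5), whereas Car4 and Tmigd1 lie on opposite sides of 0 in the lesions, with cromolyn after AOM and between wild-type lesions and AOM only.

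MC-38 tumours showed which of the 6 genes are read with next to no Epcam. The MC-38 line is itself a colon carcinoma, so whether its cells or host cells carry a gene cannot be told here. Ceacam12 had 0 counts in all 9 of these libraries, which allows a level of up to 0.947 CPM over the sash hosts and 0.982 CPM over the wild-type hosts. Mlph had 1 count in sash host 1 and 0 in the other 8 libraries. Tmigd1 had 3, 3 and 1 counts in sash hosts 1, 5 and 6, and 0 in the other 6 libraries. These floors cover counting error only. Car4 was low, at 41.0, 186, 61.1, 135 and 80.8 CPM in sash hosts 1, 2, 4, 5 and 6, and at 22.7, 25.9, 71.8 and 41.8 CPM in wild-type hosts 1, 3, 4 and 5.

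Anpep and Emp1 were well detected in MC-38 tumours. Anpep measured 309.9, 492.96, 221, 391 and 302 CPM in sash hosts, and 141, 185, 363 and 342 CPM in wild-type hosts. Emp1 measured 776, 531, 834, 695 and 680.1 CPM in sash hosts, and 986, 1351, 1051 and 754 CPM in wild-type hosts. Of the 7 other colonocyte genes the summed level was 134 to 276 CPM in sash hosts and 114 to 185 CPM in wild-type hosts, and 1 or 2 of the 7 were at 0 in each library. For these 2 genes the data go against a name as surface colonocyte genes, and the 6 genes are called by their symbols here. Ceacam12, at 0 in these tumours, did not fall with Car4 in the AOM tumours of either genotype.

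The host genotype was tested for the 3 genes that passed the filter on low counts. Car4 was 1.29 higher on the log2 scale in sash hosts by its estimate (SE 0.46, edgeR adjusted p = 0.156), Emp1 had −0.58 (SE 0.19, edgeR adjusted p = 0.128) and Anpep 0.40 (SE 0.30, edgeR adjusted p = 0.452). None passed (2 at an unadjusted p below 0.05, 0 by DESeq2), where 1.26% of all genes tested passed. In each of the 3 genes the hosts overlapped.

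How far the 6 genes went together depended on the samples. Over the 10 AOM tumours, Spearman's rho was 0.85 between Car4 and Tmigd1, 0.79 between Tmigd1 and Emp1, 0.75 between Emp1 and Mlph and 0.72 between Car4 and Emp1. Ceacam12 had a rho of 0.20 with Car4 there, and Anpep had −0.36. Over the 15 libraries of 14-week mice, rho was −0.40 between Car4 and Tmigd1, −0.64 between Car4 and Ceacam12, 0.74 between Tmigd1 and Emp1 and 0.74 between Tmigd1 and Ceacam12. Anpep had −0.86 with Mlph, −0.73 with Ceacam12 and −0.71 with Emp1 there, and 0.13 with Car4. These values are descriptions over libraries of several groups, they share each library's scaling, and they carry no test.

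The ratios to Car4 show the same split without any scaling. Per 1000 Car4 counts, Tmigd1 had 35.1, 23.4 and 12.6 counts with cromolyn during AOM, 37.2, 35.05 and 89.0 counts with cromolyn after AOM, and 10.8, 10.1 and 21.4 counts with AOM only. Ceacam12 had 6.43, 4.11 and 1.64 counts with cromolyn during AOM, 8.62, 5.31 and 18.4 counts with cromolyn after AOM, and 0.631, 0.235 and 0.460 counts with AOM only, per 1000 Car4 counts. In the lesions Ceacam12 had 0.719, 0.559 and 0.140 counts in sash, against 11.9, 7.78 and 2.38 counts in wild type. Both genes were thus lowest, relative to Car4, in sash lesions and AOM-only colons, and the ranges of the other groups of 14-week mice lay higher apart from cromolyn during AOM for Tmigd1.

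**Figure D4:**
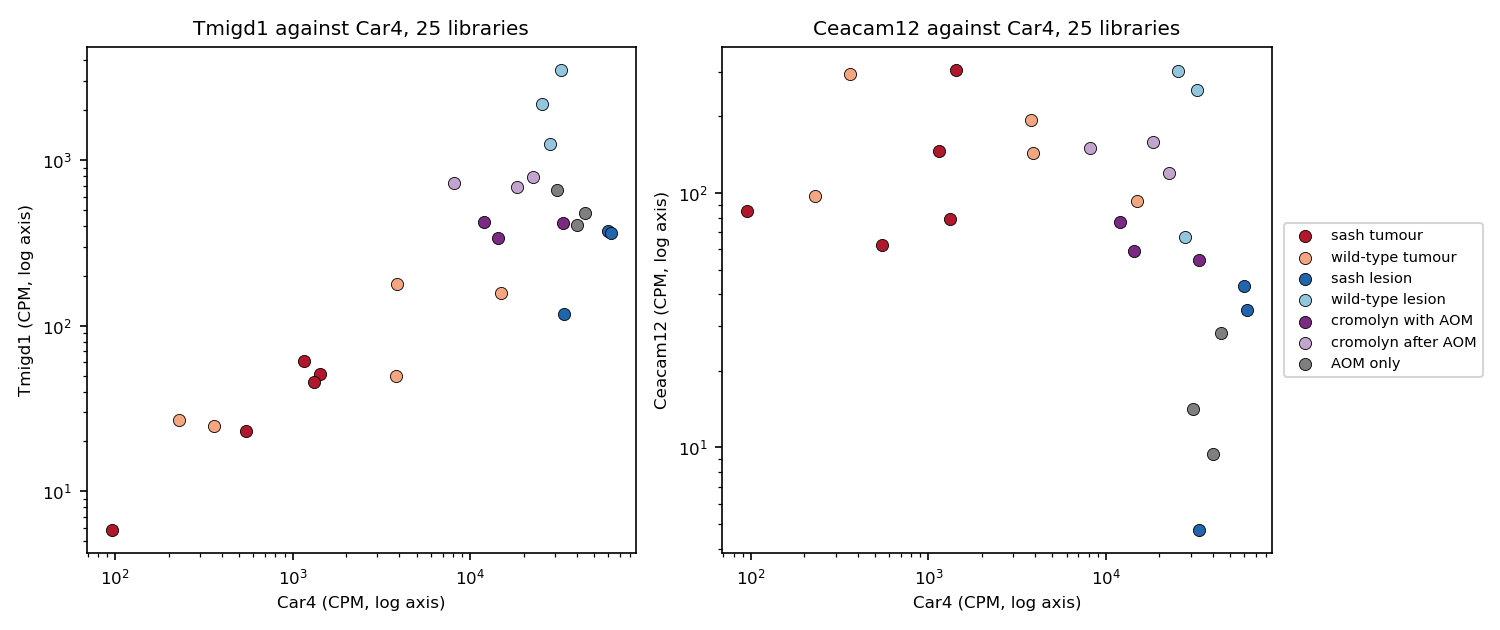
Level of Tmigd1 (left) and Ceacam12 (right) against Car4, both in CPM on log axes, with 1 point for each of the 25 libraries of the AOM table, coloured by group. Tmigd1 and Car4 climb together over the 10 tumours (Spearman's rho 0.85), while among the 15 libraries of 14-week mice Car4 is high throughout and both genes spread at rho −0.40 for Tmigd1 and −0.64 for Ceacam12.

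The genes most like the 6 were sought among 740 panel genes with a mean of at least 10 counts, by Spearman's rho with the mean log2(CPM + 1) of the 6 genes, taken within the 10 tumours and within the 15 libraries of 14-week mice. The highest were Rab27a, a small GTPase of vesicle transport (0.85 in tumours and 0.75 at 14 weeks), and H2-Eb2, a class II gene (0.75 and 0.68). Amhr2, a hormone receptor gene (0.62 and 0.70), Nt5e, the CD73 gene (0.62 and 0.65), Ceacam13 (0.58 and 0.78) and Rbm3, a cold-inducible RNA-binding protein gene (0.72 and 0.56), followed. The most opposite were Arg2, an arginase gene (−0.73 and −0.69), Vtcn1, an inhibitory ligand of T cells (−0.64 and −0.71), Abcc4, an efflux pump gene (−0.62 and −0.83), and Itgb3, an integrin gene (−0.62 and −0.78). Counts of Ceacam12 and Ceacam13, and of H2-Eb2 and its relatives, could be shared between near-identical family members, so these values are uncertain.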

How the data were processed

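RNA of 36 mouse samples in 9 groups was read with the QIAseq targeted Mouse Immuno-Oncology panel on a MiSeq, per the labels' protocols, of which 34 are used (the MC-38 samples of wild-type host 2 and sash host 3 were not analysed here). The authors deposited whole-number counts per gene without normalisation, in 1 table for AOM samples and 1 for MC-38 tumours. The submitters' processing notes name mm9 and DESeq2. Neither aligner nor counter was given in the sources used here, nor whether molecular tags were used. Each table held 988 genes and 5 control entries, at 0 and left out.

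Counts were tested with edgeR 4.0.16 (R 4.3.3): TMM factors, filterByExpr (minimum count 10, minimum total 15), robust quasi-likelihood test, Benjamini-Hochberg adjustment over all genes tested and a threshold of 0.05. Separate fits were made of the AOM tumours, the lesions, the MC-38 tumours and the 3 groups of the cromolyn set, and the 4 tumour and lesion groups were fitted together between stages. Alternatives were DESeq2 1.42.0, RLE size factors, library totals, scaling to Rpl13a (the 1 housekeeping gene of the list on the panel), no filter, a replicate block, all 25 AOM libraries and leaving out each library. The steps were tested on simulated counts. The 6 genes and all lists were chosen with earlier results of these data known. The text names the 6 genes, up to 3 called genes of a list with the smallest p, and the 6 most like and 4 most opposite genes by rho. Same-numbered lesions of the 2 genotypes deviated together (correlations 0.384, 0.154 and 0.513 for numbers 1 to 3, each above a limit of 0.1). The labels do not say that these numbers pair samples, so the main fit of the lesions had no block. A replicate block was run as an alternative only. No other comparison had all its correlations above this limit. DESeq2 left some adjusted p of Car4 undefined, and these stayed so. Floors cover counting error only, whereas an SE comes from the edgeR fit and includes the spread among libraries.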

Additional observations from a re-analysis of the deposited data

Results flagged for a closer look

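Of 20 combinations of a gene and a group of 4 or 5 libraries that were checked, 4 held a library far from the others by Dixon's test, where chance flags about 1 in 20 groups. Car4 stood at 14904 CPM in wild-type tumour 4, against 230.0 to 3868 CPM in the remaining 4. Mlph stood at 1958 CPM in the same library, against 668 to 875 CPM in the others. Anpep stood at 119 CPM in sash tumour 4, against 79.3 to 88.6 CPM in the other sash tumours. Mlph stood at 2.05 CPM in the MC-38 tumour of sash host 1, which is 1 count, against 0 in the other sash hosts.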

How the results depend on the processing

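Over the log2 differences of the 6 genes and all alternatives run, 901 values kept their direction and side of the threshold, 32 gained a call, 58 lost theirs and 11 changed sign. The number of the 6 genes called was 2 with DESeq2 and 1 with all 25 libraries among the tumours, 4 with DESeq2 and 4 with the replicate block among the lesions, and 1 each with library totals, DESeq2 and the replicate block for cromolyn during AOM. It was 2 with housekeeping scaling and 0 with all 25 libraries for cromolyn after AOM, and 2 each with library totals, housekeeping scaling and DESeq2 between the schedules. The block follows the replicate numbers, which the labels do not say pair samples. All genes called numbered 81 with DESeq2 and 88 with all 25 libraries in tumours, 72 with DESeq2 and 84 with the block in lesions, and 48 with DESeq2 in MC-38 tumours. With 1 library left out, the count of the 6 was 0 to 0 in tumours, 0 to 3 in lesions (0 without sash lesion 2, 1 without wild-type lesions 1 or 2 or sash lesion 1, 3 without wild-type lesion 3), 2 to 4 between wild-type stages, 3 to 4 between sash stages, 0 to 1 for cromolyn during AOM, 1 to 4 for cromolyn after AOM, 0 to 5 for wild-type lesions against AOM only, 0 to 0 in MC-38 tumours, 0 to 0 for the difference of genotype effects and 0 to 2 between the schedules. The cause of these changes was not tested.

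The sign changes were all of uncalled genes. With 1 library left out, Ceacam12 ran from −0.83 to 0.0074 in tumours (highest without wild-type tumour 5) and from −0.77 to 0.0340 between wild-type stages (without wild-type lesion 1), and Mlph from −0.68 to 0.0624 in lesions (without wild-type lesion 2). Anpep ran from −0.32 to 0.431 between sash stages (without sash lesion 3), and had 0.0359 with library totals and 0.0258 with the replicate block. Emp1 ran from −0.25 to 0.1002 for cromolyn during AOM (without AOM-only colon 3), with 0.0402 without colon 2 of that cromolyn group. Between the schedules Car4 ran from −0.59 to 0.296, the upper end without colon 3 of cromolyn during AOM, with 0.0511 without colon 3 of cromolyn after AOM and 0.106 with housekeeping scaling. Housekeeping scaling moved the median of all genes to −0.43 for wild-type lesions against AOM only. Low counts limit Ceacam12, with 4 to 25 counts in each sash lesion and 5 to 12 in each AOM-only colon.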
